A study of Mus musculus with 12 samples.

Results

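The 79 genes described here, of 22243 in the deposited table, are those named for proteins of the mitochondrial ribosome, and its companion C1qbp. They comprise every gene whose symbol begins with Mrpl or Mrps and a digit, 78 in all, and C1qbp, which was chosen by its higher level in ErbB4myeKO macrophages in an earlier analysis of the same libraries. The Mrp genes were taken by name, which leaves out ribosomal proteins with other symbols, but with those earlier results known. Differences between the genotypes are therefore described without a test for the 79 genes, whereas differences between litters, which the choice did not use, were tested.

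The mitochondrial ribosome translates the few messenger RNAs that the mitochondrial genome encodes, which are core subunits of the respiratory chain and the ATP synthase. It has a large and a small subunit, each built on an RNA made in the mitochondrion and on proteins that are made in the cytosol from nuclear genes and then imported. Some of these proteins descend from those of the bacterial ribosome and others were added during the evolution of mitochondria. C1qbp, also called p32, is a mitochondrial matrix protein that is needed for mitochondrial translation and is also known as a receptor for the globular heads of complement C1q. Among the members, the products of Mrps18a and Mrps30 sit in the large subunit despite their names, and Mrps36 encodes a component of the 2-oxoglutarate dehydrogenase complex rather than a ribosomal protein.

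RNA was sequenced from bone marrow-derived macrophages of 12 C57Bl/6 mice, 6 labelled LysMCre/ErbB4-floxxed (ErbB4myeKO) and 6 littermates labelled ErbB4-floxxed (ErbB4FF), with 1 mouse of each genotype from each of 6 litters. ErbB4 is a receptor tyrosine kinase for neuregulins, and the comparison asks what its loss from macrophages changes in their activated state. Both groups carry the floxed allele, and only ErbB4myeKO mice carry Cre, which the LysM promoter drives in myeloid cells at large. All 12 cultures were grown in M-CSF and brought to the proinflammatory state usually called M1 with IFN-γ (100 U/mL, 16 h), after which LPS was given at 100 ng/mL for 6 h. Ages are not on the labels, and a group of mice with Cre but no floxed allele was not analysed here.

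Levels are in TPM, an estimate of transcript abundance that is scaled to transcript length and to a common total per library. The scaling is meant to make different genes comparable. Levels were summed over the listed transcripts of a gene, and only principal isoforms are listed. These held between 59.0% and 74.7% of the TPM of a library, so comparisons between genes leave out the other isoforms. The targeted gene, Erbb4, was at 0.280 to 0.852 TPM in libraries labelled ErbB4myeKO and 0.372 to 0.716 TPM in those labelled ErbB4FF, higher in the ErbB4myeKO littermate in 4 of 6 litters. Its TPM cover the whole transcript and so do not show whether the floxed exon was lost. The 6 macrophage markers summed to between 1578 and 2466 TPM, and were higher in the ErbB4myeKO littermate in 1 of 6 litters. Markers of other cells summed to 41.2 to 375 TPM for neutrophils (12 genes), 2.78 to 92.9 TPM for fibroblasts (5 genes) and 4.47 to 33.4 TPM for dendritic cells (7 genes), while 8 lymphocyte markers reached 2.32 TPM and 8 erythroid markers 1.11 TPM at most. Y-linked genes were at 36.1 to 49.2 TPM, summed, in both libraries of litters 1 to 4 and at 0.202 to 0.406 TPM in both of litters 5 and 6. Each litter also has a batch letter of its own on the labels, so that litter and batch cannot be told apart. Littermates had the same Y-linked status, so a difference by sex cannot be told apart from one between litters.

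RefSeq promoter sequences were matched to 70 of the 79 members, 76 promoters in all, and those of the other 9 were not analysed here. Of these, 35.5% held CCGGAAG on either strand, a core recognised by ETS family factors such as GABP, within 250 bases before and 50 after the start, against 8.86% of all 32851 promoters. The nuclear respiratory factor 1 motif GCATGCGC was in 10.5% of member promoters and 2.71% of all, and the YY1 motif AAGATGGCG in 10.5% and 1.40%. The GC box GGGCGG was in 52.6% and 35.7%, whereas CACGTG, an E-box, was in 9.21% and 7.15%. CCAAT was in 40.8% and 37.4%. Some members have several promoters, among them Mrpl2 with overlapping ones that all hold CACGTG. The 7 member promoters with CACGTG thus belong to 5 of the 70 genes, the 40 with GGGCGG to 35 and the 31 with CCAAT to 28. Counts of letters in a window are a description and show no binding. The promoters below run from 150 bases before to 30 after the RefSeq start on GRCm38.p6, 5′ to 3′, with ETS or YY1 matches in capitals. C1qbp is shown as the member with a rise in every litter, Mrps21 and Mrpl52 as the most abundant members of each subunit, and Mrps11 as the member whose difference between genotypes came closest to that of C1qbp among members detected in all libraries.
C1qbp, chr11:70982997-70983176, minus strand: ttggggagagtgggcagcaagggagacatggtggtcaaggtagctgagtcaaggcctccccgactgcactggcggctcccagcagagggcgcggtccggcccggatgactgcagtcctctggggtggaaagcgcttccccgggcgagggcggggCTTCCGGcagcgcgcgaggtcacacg
Mrps21, chr3:95871485-95871664, minus strand: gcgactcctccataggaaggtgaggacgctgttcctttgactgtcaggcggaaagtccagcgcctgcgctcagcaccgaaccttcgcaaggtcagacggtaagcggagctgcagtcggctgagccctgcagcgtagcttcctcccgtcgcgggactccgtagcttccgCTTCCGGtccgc
Mrpl52, chr14:54426759-54426938, plus strand: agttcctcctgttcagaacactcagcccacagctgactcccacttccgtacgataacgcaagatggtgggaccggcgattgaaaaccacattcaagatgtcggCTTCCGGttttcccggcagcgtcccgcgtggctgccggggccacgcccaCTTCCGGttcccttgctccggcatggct
Mrps11, chr7:78782981-78783160, plus strand: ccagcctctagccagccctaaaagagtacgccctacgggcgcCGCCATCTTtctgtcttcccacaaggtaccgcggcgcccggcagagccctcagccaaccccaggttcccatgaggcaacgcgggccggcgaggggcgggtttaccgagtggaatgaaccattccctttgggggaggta

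The capitals mark the ETS core, read on the opposite strand, in the first 3 promoters, of which that of Mrpl52 holds it at 2 places. The promoter of Mrps11 holds no ETS core in this window and 1 YY1 motif, again on the opposite strand.

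Large-subunit genes were more numerous and held most of the signal. The 51 large-subunit members held 70.3% of the members' TPM, and the 26 small-subunit members 27.7%. Among those averaging 1 TPM or more, which were tested, the median of the mean levels was 19.6 TPM for 45 large-subunit and 13.5 TPM for 20 small-subunit members, and over all members of a subunit, tested or not, it was 14.1 and 12.2 TPM. The summed level of the large subunit was between 2.32 and 2.66 times that of the small subunit in each of the 12 libraries, a narrow range beside the change in the sums themselves. Summed over all members, the level was between 1058 and 2410 TPM in libraries labelled ErbB4myeKO and between 1191 and 2264 TPM in those labelled ErbB4FF.

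Few genes made up much of this total, as the 5 highest members held 30.9% of the members' TPM. Mrps21, a small-subunit protein with a bacterial homolog, had the highest mean, 127 TPM, and ranged from 75.7 over a median of 109 to 229 TPM in ErbB4myeKO and from 90.6 over a median of 115 to 217 TPM in ErbB4FF. Mrpl52, a protein of the large subunit with no bacterial homolog, followed at 115 TPM, with 49.8, 93.9 and 231 TPM as the lowest, median and highest of ErbB4myeKO and 95.7, 115 and 157 TPM of ErbB4FF. The groups overlapped for both genes, and litter 5 held the highest value of each group. Mrpl54 (mean 93.8 TPM), Mrpl27 (60.6 TPM) and Mrpl20 (58.1 TPM), all of the large subunit, came next. Mrpl27, the homolog of a bacterial protein near the peptidyl transferase centre, was the steadiest of these outside litter 5, at 48.3 to 59.0 TPM in the other 10 libraries.

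The 3 genes related to bacterial S18 were at unequal levels. By origin, Mrps18c is counted here as the homolog of S18, and Mrps18a and Mrps18b as mitochondria-specific, since their products sit elsewhere in the ribosome. Mrps18a, whose product is in the large subunit, had a mean of 50.8 TPM, Mrps18c of 38.7 TPM and Mrps18b of 25.2 TPM. Mrps18b had the widest range as a ratio of highest to lowest, from 9.09 to 34.0 TPM in ErbB4FF and from 11.7 to 39.4 TPM in ErbB4myeKO, so that its range overlapped that of Mrps18c, which was 25.3 to 55.3 and 31.4 to 43.8 TPM. Mrps18a lay between 36.4 and 85.1 TPM over the 12 libraries. The listed transcript of Mrps18b shares 64.3% of its 31-base words with other genes, chiefly Gm16279, and that of Mrps18c shares 35.5%. That of Mrps18a shares none with other genes. The part of this sharing in the levels was not tested. Mrps17 (mean 27.4 TPM) and Mrps15 (25.9 TPM), both with bacterial homologs, completed the 5 highest small-subunit members, and their ranges overlapped with each other and with Mrps18b. C1qbp, at a mean of 16.2 TPM, ranked 32nd of the 79 by mean level.

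At the other end, 12 members had a mean under 1 TPM and entered no test. They were Mrpl3, Mrpl15, Mrpl17, Mrpl48, Mrpl57, Mrpl58, Mrps5, Mrps14, Mrps16, Mrps24, Mrps26 and Mrps35, with means between 0.0324 TPM for Mrpl48 and 0.948 TPM for Mrpl17. Ribosomal proteins act in 1 particle, yet the listed levels of these genes were low. That they lie below the others follows from the threshold of 1 TPM, and the lowest tested member, Mrpl23, averaged 1.36 TPM. In 11 of the 12, the listed transcript was longer than 2500 bases, which held for 9 of the 67 tested members, and their median length was 4067 against 1138 bases. Mrps24 was the exception, at 995 bases, and was listed between 0 and 1.51 TPM in ErbB4myeKO and between 0 and 1.81 TPM in ErbB4FF. Transcripts that APPRIS does not mark as principal were not in the table, so reads given to shorter isoforms of these genes are not in these levels. The part of this selection in the low levels was not tested.

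**Figure D1:**
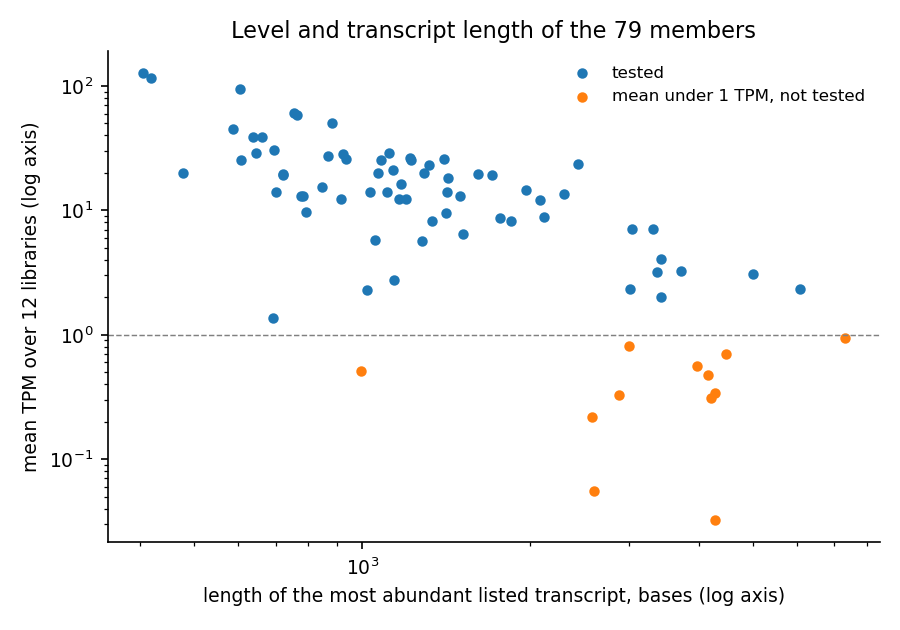
Mean level over the 12 libraries in TPM against the length in bases of the most abundant listed transcript, both on log axes, with 1 point per member. The 67 tested members (blue) are above the dashed line at 1 TPM and the 12 others (orange) below it, 11 of them with transcripts longer than 2500 bases.

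Between the genotypes, C1qbp was higher in the ErbB4myeKO mouse of every litter, while the ribosomal protein genes as a group lay around no difference. In litters 1 to 6, C1qbp was at 22.7, 17.9, 15.1, 11.4, 30.7 and 20.2 TPM in ErbB4myeKO and at 14.8, 7.68, 8.75, 7.61, 23.0 and 15.1 TPM in ErbB4FF. The groups overlapped, since the ErbB4FF mouse of litter 5 exceeded 5 of the 6 ErbB4myeKO mice, but within each litter the ErbB4myeKO mouse was the higher. Means were 19.7 ± 6.70 TPM (SD, n = 6) and 12.8 ± 6.06 TPM (SD, n = 6). The log2 ratio, taken of TPM + 0.5 within a litter, was 0.60, 1.17, 0.75, 0.55, 0.41 and 0.40 in litters 1 to 6, with a mean of 0.65 ± 0.29 (SD, n = 6 litters). When the 8780 tested genes, those averaging 1 TPM or more, were ordered from the largest rise, C1qbp was the 230th. C1qbp also stood higher among the 79 members in ErbB4myeKO, 18th to 37th by level, than in the littermate, 32nd to 47th. Its gene lies at chr11:70977836-70983026 on the minus strand (GRCm38, GENCODE M21), and 1 transcript of 1175 bases is listed, of whose 31-base words 84.4% also occur in other transcripts of C1qbp, 15.6% in no other transcript and none in another gene. Dendritic cell markers, too, were higher in the ErbB4myeKO mouse of all 6 litters, with Cd209a and Siglech at 0, and their part in the level of C1qbp was not tested. The values of C1qbp are those by which it was chosen and add no support for the difference.

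**Figure D2:**
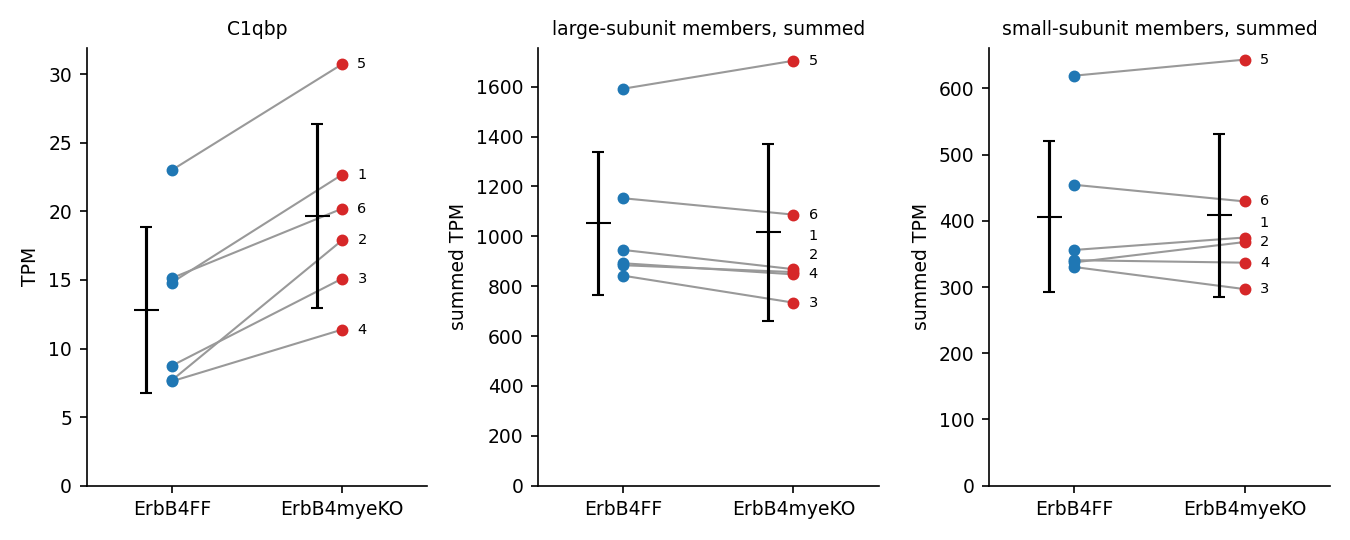
C1qbp (left, TPM) and the summed TPM of the 51 large-subunit (middle) and 26 small-subunit members (right) in each library, with lines joining littermates, the litter number at the right, and bars for mean and SD of 6 libraries. C1qbp is higher in ErbB4myeKO in all 6 litters, the sums lie close between littermates, and litter 5 is the highest in all panels.

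The summed level of all members was 1458 ± 493 TPM in ErbB4myeKO and 1485 ± 414 TPM in ErbB4FF (SD, n = 6 each), while the log2 ratio between littermates averaged -0.04 ± 0.09 (SD, n = 6 litters), lowest in litter 3 at -0.17 and highest in litter 5 at 0.09. The median log2 ratio of the 67 tested members was -0.01, beside -0.00068 for all 8780 genes. Litter by litter this median ran from -0.11 to 0.05, with members on both sides of 0 in each. In litters 1 to 6, 39, 41, 28, 28, 37 and 26 of the 67 were higher in ErbB4myeKO, which is 58.2%, 61.2%, 41.8%, 41.8%, 55.2% and 38.8%, beside 49.6%, 52.0%, 46.6%, 45.9%, 51.9% and 52.2% of all genes. No direction was shared by the litters. Averaged over litters, 29 members were above and 38 below 0, and 58 of 67 were within 0.25 of it, against 73.6% of all genes.

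By subunit, the median log2 ratio was -0.03 for the 45 tested large-subunit and 0.05 for the 20 tested small-subunit members. By origin, it was -0.00 for 27 large-subunit proteins with bacterial homologs, of which 13 were above 0, and -0.04 for 18 mitochondria-specific ones, of which 4 were. The small-subunit medians were 0.03 for 12 with bacterial homologs and 0.07 for 8 counted as mitochondria-specific. For scale, the median over all 67 had an SD of 0.067 over litters. These values are a description and were not set against each other by a test.

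One member, C1qbp, was higher in ErbB4myeKO in all 6 litters (2.51% of all genes) and 0 were lower in all 6 (2.31%). None of the 67 had all 6 libraries of one genotype above all 6 of the other, as had 0.0342% of genes with ErbB4myeKO above and 0.0114% with it below. In the fit of all 8780 genes with litter as a block, 0 passed an adjusted p of 0.05 by limma and 721 had an unadjusted p under 0.05.

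Mrps11 and Mrps27 followed C1qbp among members detected in all libraries. Mrps11, the homolog of a protein on the platform of the bacterial small subunit, had a lowest, median and highest level of 3.42, 6.79 and 12.2 TPM in ErbB4myeKO and 2.41, 4.89 and 7.10 TPM in ErbB4FF. It was higher in ErbB4myeKO in 5 of 6 litters, with a mean log2 ratio of 0.50 ± 0.40 (SD, n = 6), and the groups overlapped. Its listed transcript shares 14.1% of its 31-base words with other genes, chiefly Mrpl46. Mrps27, a mitochondria-specific pentatricopeptide repeat protein, was at 8.06 to 11.1 TPM in ErbB4myeKO and 5.53 to 11.1 TPM in ErbB4FF. The mean log2 ratio of Mrps27 was 0.31 ± 0.26 (SD, n = 6), and in litter 5 (11.1 and 11.1 TPM) and litter 6 (8.98 and 9.03 TPM) the littermates lay close together. Mrpl32, a large-subunit protein that the m-AAA protease matures, came next at 0.24 ± 0.38 and was higher in 4 of 6 litters, but at 0.11 without litter 3.

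The lowest means among members detected in all libraries were those of Mrpl2, Mrpl42 and Mrpl52. Mrpl2, homolog of a core protein of the bacterial large subunit, differed by -0.40 ± 0.79 on the log2 scale (SD, n = 6), in which litter 2 stood at -1.84 (3.41 against 13.5 TPM) and the others between -0.57 and 0.46. Mrpl42 was at -0.30 ± 0.44 and Mrpl52 at -0.27 ± 0.55. Mrpl42 was lower in ErbB4myeKO in 5 of 6 litters, and Mrpl52 in 4, with litter 1 at 49.8 against 97.7 TPM and litter 5 at 231 against 157 TPM. Both belong to the mitochondria-specific part of the large subunit.

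A few members changed between no signal and several TPM from mouse to mouse. Mrps10, a small-subunit protein with a bacterial homolog, was listed at 3.32, 0.737, 0, 5.09, 6.43 and 8.43 TPM in ErbB4myeKO, litters 1 to 6. In ErbB4FF it was at 0.920, 0.670 and 1.66 TPM in litters 2, 3 and 5 and under 0.01 TPM in the other 3. Its mean log2 ratio, 1.80 ± 2.14 (SD, n = 6), was above that of C1qbp and the highest of the 67, with 4 of 6 litters higher in ErbB4myeKO. All of the 31-base words of its listed transcript also occur in other transcripts of the gene. Mrpl38 was under 0.01 TPM in the ErbB4myeKO mice of litters 1 and 2 and in the ErbB4FF mouse of litter 4, and at 6.17 to 25.5 TPM in the other 9 libraries. In Mrpl38, 99.5% of the 31-base words are shared within the gene. Mrpl23, homolog of a protein at the exit of the ribosomal tunnel, was listed at 0 in 5 ErbB4myeKO and 3 ErbB4FF libraries, at 3.16 TPM in the ErbB4myeKO mouse of litter 6, and at 5.94, 5.21 and 2.01 TPM in the ErbB4FF mice of litters 1, 2 and 5. It shares 77.0% of its words with other genes, chiefly the pseudogene Mrpl23-ps1. Their log2 ratios had an SD over litters above 1, as had that of Mrpl21. Whether reads were divided differently among transcripts from library to library was not tested. Among all members, the listed transcript of 20 had under 5% of words of its own and that of 6 shared 50% or more with other genes.

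**Figure D3:**
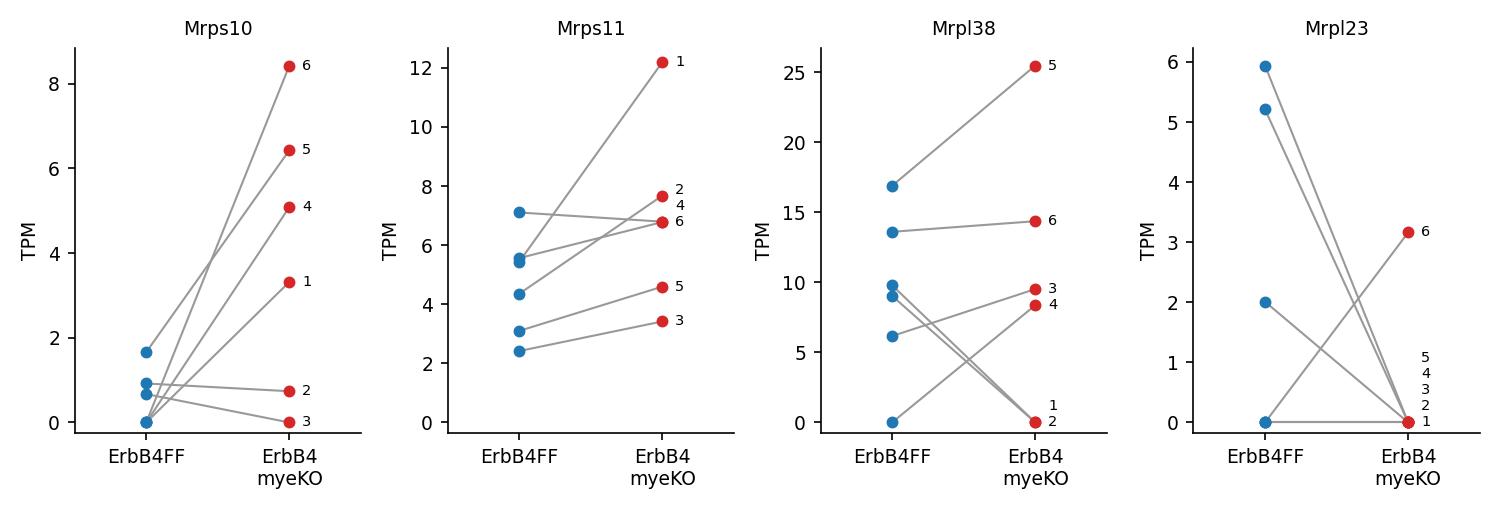
TPM of Mrps10, Mrps11, Mrpl38 and Mrpl23 in each library, 1 panel per gene, with lines joining littermates and the litter number at the right. Mrps11 is above 2 TPM in all 12 libraries, whereas the other 3 genes are at or near 0 in some libraries of both genotypes.

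**Figure D4:**
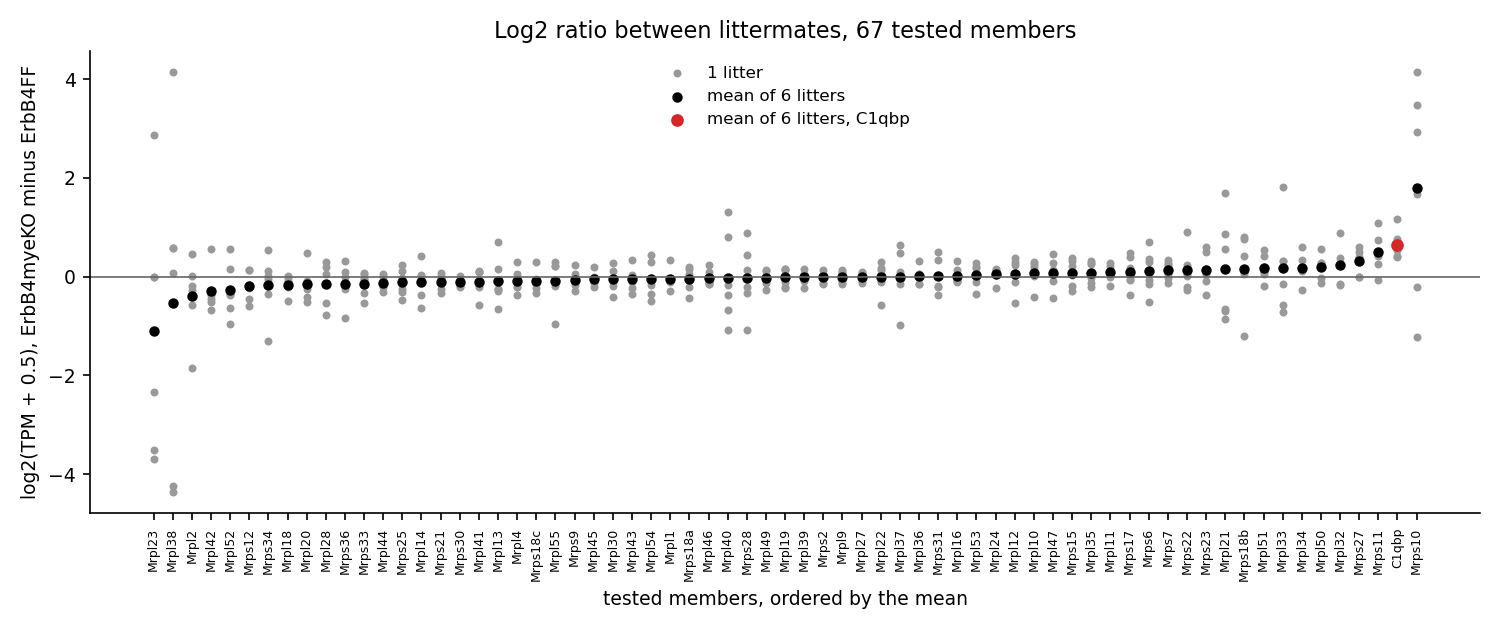
Difference in log2(TPM + 0.5) between the ErbB4myeKO and the ErbB4FF mouse of a litter, for the 67 tested members ordered by the mean over litters. Grey points are the 6 litters, black points the means and the red point the mean of C1qbp, and 58 of the 67 means are within 0.25 of 0.

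Before any centring by transcript length, and with litter 5 included, the summed level of these genes differed more between litters than between littermates. A moderated F test for litter in limma, which the choice of members did not use, passed an adjusted p of 0.05 for 38 of the 67 members (56.7%), beside 44.9% of all 8780 genes. The largest F belonged to Mrps21 (adjusted p = 0.00138 by limma), followed by Mrpl44, Mrpl34, Mrpl30 and Mrpl41, with adjusted p from 0.0019 to 0.00293. C1qbp passed as well (adjusted p = 0.00589 by limma), but not after centring by transcript length (adjusted p = 0.102 by limma). The count rests on litter 5, since 2 members passed when its 2 libraries were left out, beside 11.5% of all genes.

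Nearly the whole group was high in litter 5. Its median log2 level in that litter was 0.62 above the mean of the litters, and 65 of the 67 members were above their mean. Litter 6 followed at 0.16, with 55 of 67 above, and litters 1 to 4 lay at -0.05, -0.17, -0.27 and -0.19. Litters 5 and 6 were also those with Y-linked genes at 0.406 TPM or less, and the part of sex in this order was not tested. The medians of all genes were between -0.08 and 0.07. The listed transcripts held 71.4% and 74.7% of the TPM in litter 5 and 59.0% to 64.9% in the other 10 libraries, and the member median of litter 5 was 0.41 once every library was rescaled to the same listed total. In 44 of the 67 members both libraries of litter 5 exceeded the other 10, beside 20.2% of all genes. Mrpl41, a mitochondria-specific protein of the large subunit, was at 27.6 and 29.5 TPM in litter 5 and between 7.72 and 12.5 TPM in the others. Mrpl34, homolog of a small bacterial large-subunit protein, was at 51.2 and 55.7 TPM against 11.3 to 26.9 TPM. Mrpl30 was at 79.5 and 81.2 TPM against 24.5 to 55.9 TPM, and Mrps21 at 217 and 229 TPM against 75.7 to 148 TPM. Both genotypes of litter 5 were high in each of these genes. Mrpl44, which has a ribonuclease III-like fold, was also low in litter 3, at 8.26 and 10.4 TPM against 17.0 to 28.6 TPM elsewhere.

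Mrpl39 and Mrps11 were the 2 members below their mean in litter 5. Mrpl39, a large-subunit protein related to threonyl-tRNA synthetase, was at 9.90 and 10.5 TPM there and at 12.3 to 16.1 TPM in the other 10 libraries, the only tested member with both litter 5 libraries below all others, beside 19.9% of all genes. Mrps11 was at 4.59 and 3.10 TPM in litter 5, within its range elsewhere. Macrophage markers summed to 1578 and 1650 TPM in litter 5, the lowest pair, against 1860 to 2466 TPM in the others, and proliferation genes to 220 and 229 TPM, within the 129 to 250 TPM of the others. Erythroid markers, near 0 throughout, were at 0.696 and 1.11 TPM in litter 5 and at 0.325 TPM or less elsewhere. The part of these markers in the levels of litter 5 was not tested. In bulk samples a change in the share of cells and a change in RNA per cell cannot be told apart.

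The excess of litter 5 moved with transcript length in all genes. Genes with transcripts under 900 bases had a median log2 level 0.73 above the mean of the litters in litter 5, and those of 2500 bases or more were at -0.25, with 0.60, 0.40 and 0.20 in the classes between. Members in the same classes were at 0.84 (22 members), 0.60 (15), 0.60 (15), 0.33 (6) and 0.26 (9). The members are short, with a median of 1138 bases among those tested against 2690 bases over all genes tested. Of the members under 1800 bases, 39 of 52 had both litter 5 libraries above the other 10, against 43.4% of all genes of that length, and of those of 1800 bases or more 5 of 15 had, against 11.2%.

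Once each library was centred on the median of genes of like length, an alternative chosen after seeing the data, the member median in litter 5 was 0.19, with 49 of 67 above 0. The litter F test by limma then called 10 members (14.9%), fewer than the 32.1% of all genes. They were Mrpl11, Mrpl14, Mrpl19, Mrpl22, Mrpl39, Mrpl41, Mrpl44, Mrpl45, Mrps11 and Mrps25. Mrps25 had a litter 5 value of 1.30 on this scale and Mrpl41 of 0.66, whereas Mrps11 was at -0.94 and Mrpl39 at -0.47. The listed transcript of Mrps25 shares 74.6% of its 31-base words with Nr2c2, and 14.8% occur in no other transcript. For C1qbp, the excess in litter 5 went from 0.82 to 0.32 with this centring, and its log2 ratio between genotypes was 0.63. The part of RNA quality or library preparation in these length trends was not tested.

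**Figure D5:**
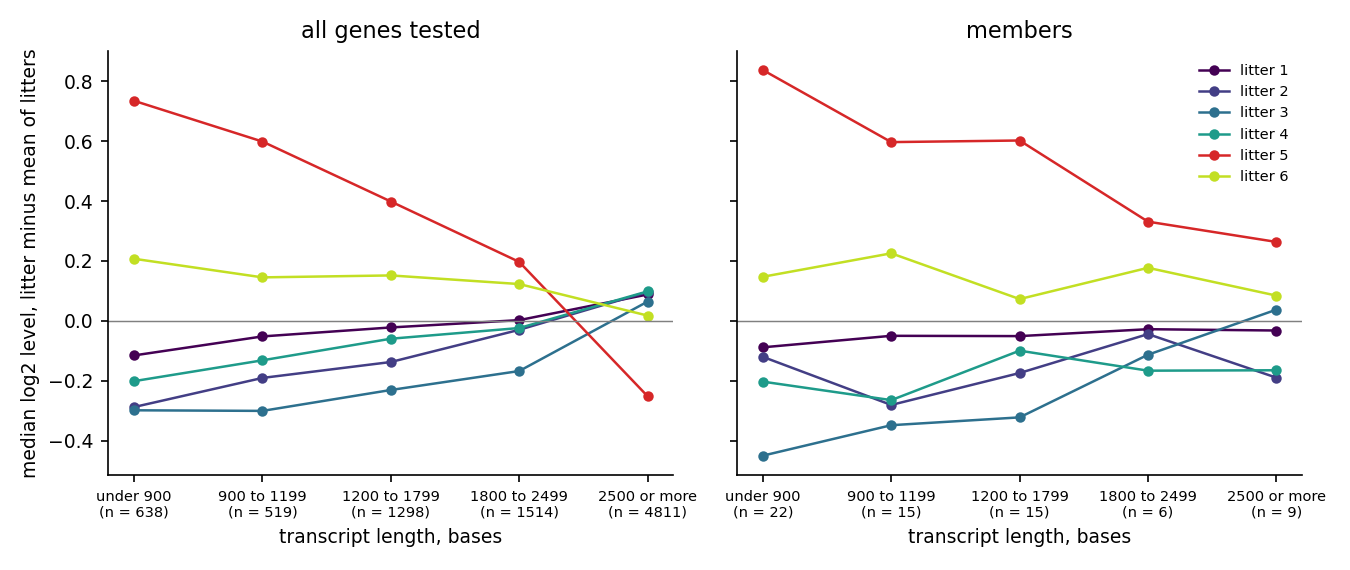
Median log2 level of each litter minus the mean of the 6 litters, by transcript length in bases, for all 8780 genes tested (left) and the 67 tested members (right), with 1 line per litter and n below each class. Litter 5 (red) falls from 0.73 to -0.25 over all genes and from 0.84 to 0.26 over members.

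Other genes linked to mitochondrial translation were taken from 6 lists of known function and tested between genotypes. These lists too were written with earlier results of the libraries known. They hold other ribosomal proteins, translation factors, assembly factors, genes for the upkeep and transcription of mitochondrial DNA, mitochondrial messenger RNAs, and regulators. Of 75 such genes on 6 lists, 62 were tested and 0 passed an adjusted p of 0.05 by limma, while 5 had an unadjusted p under 0.05, 2 higher and 3 lower in ErbB4myeKO, beside 3.83% of all genes higher and 4.38% lower. The adjusted p of each of these 5 was 0.603. The count of 5 was 1 without litter 2, 3 without litter 3, 2 without litter 6 and 7 without litter 1, where 413, 857, 506 and 719 of all genes had an unadjusted p under 0.05. Without the litter block it was 1, and 75 over all genes.

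The 13 messenger RNAs of the mitochondrial genome, which the ribosome translates, were all tested, and 10 had a mean log2 ratio above 0, with a median of 0.14. Only mt-Nd2, a subunit of complex I, had an unadjusted p under 0.05, with 682 ± 157 TPM in ErbB4myeKO and 573 ± 85.2 TPM in ErbB4FF (SD, n = 6 each). It was higher in 6 of 6 litters, by 0.23 on the log2 scale (SE 0.097), and failed the correction (adjusted p = 0.603 by limma). The ranges overlapped, at 476 to 934 and 460 to 668 TPM. The most abundant, mt-Co1 and mt-Co3 of cytochrome c oxidase, had means of 6619 and 4714 TPM. Their log2 ratios were 0.14 (SE 0.084) and -0.05 (SE 0.20).

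Among 16 translation factors and their partners, 13 were tested and 1 had an unadjusted p under 0.05. This was Lrpprc, which binds and stabilises mitochondrial messenger RNAs, at 6.67 ± 0.714 TPM against 5.45 ± 0.781 TPM (SD, n = 6 each). The log2 ratio of Lrpprc was 0.27 (SE 0.10), above 0 in 6 of 6 litters (adjusted p = 0.603 by limma). Tufm, the elongation factor that brings aminoacyl-tRNA to the ribosome, was at a mean of 42.6 TPM with a ratio of 0.04 (SE 0.082), and the initiation factor Mtif3 at 8.42 TPM with -0.08 (SE 0.15). Of 5 ribosomal proteins without an Mrp symbol, 4 were tested. Aurkaip1, a small-subunit protein, was lower in ErbB4myeKO in 6 of 6 litters with a log2 ratio of -0.24 (SE 0.066, adjusted p = 0.603 by limma), at 35.7 to 87.2 TPM against 46.3 to 109 TPM. Chchd1, also of the small subunit, had a mean of 46.6 TPM and a ratio of 0.27 (SE 0.22), and was higher in 3 of 6 litters. Dap3, a GTP-binding small-subunit protein, had a mean of 0.546 TPM and was not tested.

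Of 25 assembly factors, 20 were tested, 8 with a ratio above 0 and 12 below. The helicase Dhx30 had a log2 ratio of -0.66 (SE 0.27, adjusted p = 0.603 by limma) and was lower in 5 of 6 litters, with wide and overlapping ranges of 1.10 to 9.22 and 1.79 to 7.08 TPM. The most abundant on this list, Rpusd4 (11.8 TPM) and Mterf3 (10.9 TPM), had ratios of 0.05 (SE 0.11) and -0.05 (SE 0.25). None of the 6 tested genes for the upkeep and transcription of mitochondrial DNA had an unadjusted p under 0.05. Ssbp1, which coats single-stranded mitochondrial DNA, was at a mean of 13.8 TPM with a ratio of 0.14 (SE 0.14), and the transcription factor Tfb2m at 6.45 TPM with 0.19 (SE 0.18). Among the 6 tested of 8 regulators, the transcription factor Nrf1 was at 0 to 2.39 TPM in ErbB4myeKO and 1.21 to 4.03 TPM in ErbB4FF, with a log2 ratio of -1.23 (SE 0.49, adjusted p = 0.603 by limma) and lower in 4 of 6 litters. Esrra, a nuclear receptor, had a mean of 42.0 TPM and a ratio of -0.05 (SE 0.11). Gabpa, which encodes the DNA-binding subunit of the ETS factor GABP, was at a mean of 20.4 TPM with a ratio of 0.07 (SE 0.087).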

How the data were processed

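RNA from 12 macrophage cultures was sequenced, and genotype and litter were taken from the labels. The authors pseudoaligned reads with kallisto and deposited TPM per principal transcript, and the processing notes also name CASAVA, sleuth and mm10. The kallisto version and transcriptome release are not given in the sources used here. The deposited columns of sleuth's comparison (p, q and other test values) and of log2 ratios were not used.

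Repeated lines were dropped (28808 transcripts from 29213 lines) and TPM summed per gene. TPM carry no read depth, so precision rests on the spread between 6 litters. The 8780 genes averaging 1 TPM or more were analysed as log2(TPM + 0.5) in limma 3.58.1 (lmFit, eBayes with trend) in R 4.3.3, with genotype as the effect and litter as the block, and p-values were adjusted by Benjamini-Hochberg over all 8780. Fold changes on this scale understate those of low genes. The labels pair littermates by number, and after removing group means their log2 values correlated at 0.273 to 0.774. Replicates are separate mice. Lengths, positions and shared 31-base words came from GENCODE M21, and promoters from RefSeq (GRCm38.p6). Python 3.11.15, numpy 2.4.6, pandas 2.3.3 and matplotlib 3.10.9 were used.

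The members and lists were chosen with earlier results of these data known. Named genes are C1qbp, the 5 highest members of each subunit, the 5 largest and 5 smallest mean ratios, members with 1 direction in all litters, the 5 largest litter F values, the Mrps18 paralogs, untested members, and from each other list the genes with an unadjusted p under 0.05 and the 2 highest. Mrpl39, Mrps25, Mrpl21, Mrpl46, Dap3 and the mitochondrial messenger RNAs that differed between litters, and the members called after length centring, were named after their values were seen.

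The fit was tested on simulated data. The alternatives were no litter block, 0.1 or 1 in place of the added 0.5, all genes or those averaging 5 TPM or more, median ratio scaling, rescaling of the listed transcripts to a common total, limma without trend, the highest transcript alone, each litter left out, and centring by 20 length classes, the last chosen after seeing the data. Markers of dendritic cells, neutrophils and fibroblasts were also summed.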

Additional observations from a re-analysis of the deposited data

Results flagged for a closer look

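Values of 6 libraries or 6 litters were examined for 1 value far from the other 5, in 72 groups, and 15 (20.8%) held one. Chance gives about 1 in 20 groups, but the genes examined include those named for the largest litter F and the groups share libraries, so the share is no measure against chance. Of the 15, 12 were in litter 5. The ErbB4myeKO mouse of litter 5 stood apart in Mrpl54 (165 TPM), Mrpl27 (92.7 TPM), Mrps18a (85.1 TPM), Mrps21 (229 TPM), Mrps27 (11.1 TPM), Mrpl42 (53.0 TPM), Mrpl34 (55.7 TPM) and Mrpl41 (27.6 TPM), and in the summed level of the members (2410 TPM). The ErbB4FF mouse of litter 5 did so in Mrpl27 (90.0 TPM), Mrpl30 (81.2 TPM) and Mrpl41 (29.5 TPM). Hence both genotypes of the litter were far from the rest in Mrpl27 and Mrpl41.

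The other 3 were single genes. In litter 3 the log2 ratio was -1.21 for Mrps18b (11.7 against 27.8 TPM) and 0.57 for Mrpl42 (25.8 against 17.2 TPM), each away from the other 5 litters. Mrpl23 was at 3.16 TPM in the ErbB4myeKO mouse of litter 6 and listed at 0 in the other 5.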

How the results depend on the processing

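Under 16 alternatives, the mean log2 ratio of C1qbp stayed between 0.54 and 0.70, and the median of the members between -0.02 and 0.01. For the genes of the lists linked to mitochondrial translation, 0 passed an adjusted p of 0.05 by limma in every alternative. Their count of 5 with an unadjusted p under 0.05 was 1 with no replicate block and 1 to 7 with a litter left out. It was 3 with no filter, with a mean of at least 5 TPM and with length centring. Over all genes, those with an unadjusted p under 0.05 were 721 with the block and 75 without it, and the block changed no call at an adjusted p of 0.05 between genotypes. The 38 members that differed between litters became 10 with length centring and 2 to 39 with a litter left out, the 2 being without litter 5. The litter 5 median of 0.62 became 0.19 with length centring, 0.41 with the listed transcripts rescaled to a common total, and was 0.56 to 0.69 with another litter left out. The causes of these shifts were not tested. Of 349 values of 22 single members, 347 moved by less than the SD over litters, 2 moved by more (with the highest transcript alone, Mrpl42 to -0.80 and Mrps21 to -0.31) and 10 took the other sign, in Mrpl27, Mrpl30, Mrpl38, Mrpl54 and Mrps18a. A separate fit with Y-linked genes in place of sex was not run, as littermates had the same Y-linked status and the litter block absorbs it. Without read counts, low genes cannot be given counting intervals.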

Other observations

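The 7 dendritic cell markers summed to between 8.95 and 33.4 TPM in ErbB4myeKO and between 4.47 and 25.5 TPM in ErbB4FF and were higher in the ErbB4myeKO littermate in 6 of 6 litters. The 12 neutrophil markers and the 5 fibroblast markers were higher in the ErbB4myeKO littermate in 4 of 6.

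Of the 62 genes tested from the lists linked to mitochondrial translation, 17 (27.4%) passed an adjusted p of 0.05 for litter by limma. The share over all genes was higher, at 44.9%. In litter 5, 10 of the 13 mitochondrial messenger RNAs were above the mean of the litters and 3 below, with a median log2 difference of 0.28. Of the 13, 6 differed between litters by limma (adjusted p from 0.00448 to 0.0361), and their log2 levels in litter 5 differed from that mean by -1.14 for mt-Nd4l, -0.71 for mt-Nd5, -0.05 for mt-Co1, 0.53 for mt-Nd1, 0.63 for mt-Atp6 and 0.74 for mt-Nd6. The rise of mt-Co2, at 1.03, was the largest of the 13, but its litter test did not pass (adjusted p = 0.137 by limma).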
